A study of Mus musculus with 8 samples.

Results

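The lysyl oxidase family is described here in RNAseq libraries of pericytes and smooth muscle cells (SMCs) from mouse skeletal muscle. Its members were taken by gene symbol from the deposited expression values, and all 5 listed symbols (Lox, Loxl1, Loxl2, Loxl3 and Loxl4) were found, each once, among 37979 genes. The donor animals were Ai14+/−;SM22α-Cre+ mice of both sexes, aged 3 to 4 months, so pericytes and SMCs from their hindlimbs carry the same Cre and reporter alleles. SMCs were sorted as PDGFRβ+tdTomato+ cells and pericytes as PDGFRβ+tdTomato− cells, after a gate against CD31, CD45 and DAPI. There were 4 libraries of each group, numbered 1 to 4, and several sorts were pooled into each library. The labels give all 8 libraries the same batch. The SM22α promoter drives Cre in this cross, so a pericyte that once used that promoter is tdTomato+ and falls among the SMCs. Same-group libraries are named as biological replicates, but which mice went into which library is not stated in the sources used here, so p-values measure the spread between these pooled libraries.

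Lysyl oxidases are secreted, copper-dependent amine oxidases. They turn lysine side chains of collagen and elastin into aldehydes that condense into covalent crosslinks, which give the vessel wall, tendon and muscle connective tissue their tensile strength. Lox, the founding enzyme, and Loxl1, known for its part in elastic fiber maintenance, are made as proenzymes whose propeptide is cut off outside the cell. Loxl2, Loxl3 and Loxl4 carry scavenger receptor cysteine-rich domains ahead of the same catalytic domain, and Loxl2 is known for crosslinking type IV collagen of basement membranes.

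The catalytic domain contains a copper-binding stretch with 4 histidines. Its coding bases are shown for the scavenger receptor-type members because they show how alike, and how separable, the transcripts are. They were read from the GENCODE transcripts (NCBI Build 37), run 5′ to 3′ on the coding strand, and have the histidine codons in capitals.
Loxl2 (chr14:70082123-70088853, plus strand, across exons 10 and 11): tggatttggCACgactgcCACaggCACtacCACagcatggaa
Loxl3 (chr6:82999989-83000128, plus strand, across exons 10 and 11): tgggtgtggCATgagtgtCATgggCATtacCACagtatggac
Loxl4 (chr19:42673288-42674389, minus strand, across exons 11 and 12): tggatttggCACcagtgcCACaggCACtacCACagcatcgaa
Each stretch of 42 bases is split by an intron, which the coordinates span. The stretch of Loxl2 matched that of Loxl4 at 39 of 42 bases and that of Loxl3 at 32. The Lox and Loxl1 stretches, not shown here, matched each other at 41 of 42 bases and matched the other members at 28 to 33. Over the whole transcripts, the longest identical run between any 2 members was 32 bases (Lox and Loxl1), shorter than the 150-base reads, so no whole read is shared by 2 members.

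The genes lie on 5 chromosomes. In NCBI Build 37, the build used by the authors, Lox is on chromosome 18 from 52675723 to 52689521 (minus strand) and Loxl1 is on chromosome 9 from 58135530 to 58161019 (minus strand). Loxl2 is on chromosome 14 from 70008978 to 70095640 (plus strand), Loxl3 is on chromosome 6 from 82984167 to 83002556 (plus strand), and Loxl4 is on chromosome 19 from 42668472 to 42687303 (minus strand). All are annotated as protein coding in GENCODE version M1. The longest coding sequence has 411 codons in Lox, 607 in Loxl1, 776 in Loxl2, 754 in Loxl3 and 758 in Loxl4. The annotation shows overlaps for 2 members. Loxl3 shares 535 exonic bases (12.8% of its own) with Htra2 on the opposite strand, and a counting that ignores strand cannot part them. Loxl2 lies inside the span of the antisense noncoding gene Gm16867 but shares 0 exonic bases with it. Of the nearest neighbours that do not overlap, R3hcc1 (beside Loxl2), Dok1 (beside Loxl3) and D19Ertd386e (beside Loxl4) did not pass the test between pericytes and SMCs, and Aup1, 3′ of Loxl3, was higher in pericytes, with a log2 fold change of 0.79 (limma adjusted p = 0.0459).

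The values are FPKM, which scale the fragments of a gene by its length and by the library's mapped reads, so levels can be set side by side between genes, but the read counts are unknown. Per library, the sum of all genes was 690247 to 1190435 FPKM in pericytes and 656405 to 737839 FPKM in SMCs. Pericyte replicate 2 had the highest sum, so the members' results without it are given as well. Relative depths, estimated from the values of the lowest genes, differed by at most 1.23 times. Of the genes behind the sort, Pdgfrb and Tagln (SM22α) overlapped between the groups, as did Acta2, the smooth muscle actin gene that was stained in this muscle. All of them had higher means in SMCs, without passing the test (limma adjusted p = 0.0973, 0.11 and 0.0979). With the filter at 1 FPKM each passed (limma adjusted p = 0.0272, 0.0366 and 0.0316), and Pdgfrb also passed with the replicate block (limma adjusted p = 0.00601) and with replicates 1 and 2 against 3 and 4 as a term (limma adjusted p = 0.00104). Over all genes, 5987 of 13349 were called with that filter and 7723 of 27414 with that term, against 5977 of 27414 with neither. As TPM, Tagln and Acta2 passed (limma adjusted p = 0.0408 and 0.0331), and Acta2 passed with quantile scaling (limma adjusted p = 0.0236). The described gate excluded CD31 and CD45, although the study's gating legend writes both populations as CD31+. Every SMC library had more Pecam1, the CD31 gene, at 45.5 ± 15.0 and 197 ± 83.6 FPKM in pericytes and SMCs, and every pericyte library had more Ptprc, the CD45 gene, at 175 ± 65.6 and 8.16 ± 3.18 FPKM (mean ± SD, n = 4 each). No brain library was analysed here.

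The first question was whether the family differed between pericytes and SMCs. All 5 members were higher in every SMC library than in every pericyte library. A gene was called changed at a Benjamini-Hochberg adjusted p below 0.05 by limma over all 27414 genes above 0 FPKM in at least 1 library, and called enriched when its log2 fold change also passed 2. Lox, Loxl1, Loxl2 and Loxl3 were called and were SMC-enriched by the fold threshold, whereas Loxl4 did not pass the test. Without pericyte replicate 3, Loxl1 still passed the test but fell under the fold threshold, at -1.93. Among all genes tested, 21.8% were called in either direction, 11.2% higher in SMCs and 10.6% higher in pericytes, 2.66% were SMC-enriched and 3.24% pericyte-enriched, and 12.5% had every SMC library above every pericyte library. The median log2 fold change, pericytes over SMCs, was -2.30 over the 5 members and 0.02 over all genes tested. In bulk libraries, fewer cells that express a gene and less of its RNA per cell cannot be told apart.

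**Figure D1:**
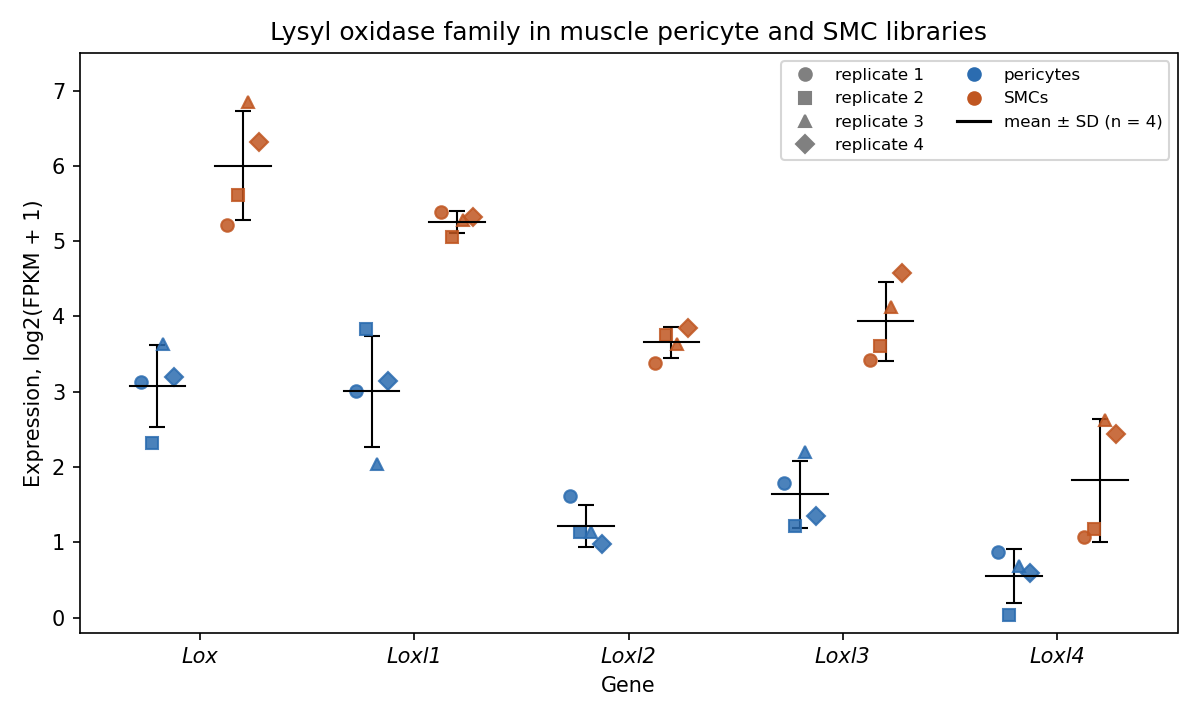
Expression of each lysyl oxidase gene, as log2(FPKM + 1), in 4 pericyte libraries (blue) and 4 SMC libraries (orange), where symbols mark replicates and bars mark the mean and SD. No SMC library overlaps a pericyte library for any of the 5 genes, and the gap is narrowest for Loxl4.

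Lox had the highest mean of the family in SMCs. It had 7.73, 4.01, 11.4 and 8.18 FPKM in pericyte replicates 1 to 4 and 36.3, 48.1, 114.3 and 78.7 FPKM in SMC replicates 1 to 4. SMC replicates 3 and 4 were the high ones, and even the lowest SMC library was 3.18 times the highest pericyte library. The means were 7.83 ± 3.03 and 69.3 ± 34.9 FPKM in the pericyte and SMC libraries (mean ± SD, n = 4 each), an SMC to pericyte ratio of 8.85. The log2 fold change of FPKM + 1, pericytes over SMCs, was -2.93 (standard error 0.42, 95% interval -3.91 to -1.95, limma adjusted p = 0.00246). Only 187 of the 27414 genes tested had a larger fold change toward SMCs.

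Loxl1 was the steadiest member among SMCs. It had 41.0, 32.2, 37.7 and 38.8 FPKM in SMC replicates 1 to 4, a coefficient of variation of 10.03%, against 50.3% for Lox. Its pericyte libraries had 7.05, 13.2, 3.12 and 7.83 FPKM and varied by 53.4%. Pericyte replicate 2 was the highest and replicate 3 the lowest, the reverse of Lox, for which replicate 3 was the highest and replicate 2 the lowest. The means were 7.81 ± 4.17 and 37.4 ± 3.75 FPKM in the pericyte and SMC libraries (mean ± SD, n = 4 each), an SMC to pericyte ratio of 4.79. The log2 fold change was -2.25 (standard error 0.34, 95% interval -3.06 to -1.44, limma adjusted p = 0.00343).

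Loxl2 had the widest gap between the groups relative to its spread. It had 2.06, 1.20, 1.20 and 0.976 FPKM in pericyte replicates 1 to 4 and 9.39, 12.5, 11.5 and 13.4 FPKM in SMC replicates 1 to 4. The lowest SMC library was 4.56 times the highest pericyte library, the widest such gap in the family. The means were 1.36 ± 0.478 and 11.7 ± 1.75 FPKM, respectively (mean ± SD, n = 4 each), an SMC to pericyte ratio of 8.63. Its log2 fold change of -2.44 had the smallest standard error of the family, 0.16 (95% interval -2.82 to -2.06, limma adjusted p = 8.9e-05). Because 1 is added before the log, this fold change understates the ratio of means, and a pseudocount of 0.1 gave -3.06. The antisense neighbour Gm16867 had overlapping groups, at 8.95 ± 1.09 and 12.5 ± 4.96 FPKM in the pericyte and SMC libraries (mean ± SD, n = 4 each).

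Loxl3 was less abundant than Lox and Loxl1 in SMCs. It had 2.45, 1.33, 3.57 and 1.54 FPKM in pericyte replicates 1 to 4 and 9.75, 11.2, 16.4 and 22.9 FPKM in SMC replicates 1 to 4. As for Lox, SMC replicates 3 and 4 were the high ones and pericyte replicate 3 was the highest pericyte library. The means were 2.22 ± 1.02 and 15.1 ± 5.97 FPKM, respectively (mean ± SD, n = 4 each), an SMC to pericyte ratio of 6.78. The log2 fold change was -2.30 (standard error 0.31, 95% interval -3.04 to -1.56, limma adjusted p = 0.00211). Htra2, the overlapping gene on the other strand, had 22.9 ± 4.92 and 31.1 ± 4.10 FPKM in the pericyte and SMC libraries (mean ± SD, n = 4 each). Its groups overlapped and its log2 fold change of -0.44 did not pass (limma adjusted p = 0.107). Htra2 kept that side of the threshold in 13 of 16 alternatives. In the others it passed, higher in SMCs, with a limma adjusted p as low as 0.0213, or 0.0478 with a library left out. How many of its reads fall in the shared bases is unknown.

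Loxl4 was the least abundant member in every library. It had 0.834, 0.0265, 0.613 and 0.504 FPKM in pericyte replicates 1 to 4 and 1.09, 1.26, 5.14 and 4.42 FPKM in SMC replicates 1 to 4. SMC replicates 1 and 2 lay close to the pericyte libraries, with the lowest SMC library 1.31 times the highest pericyte library, and SMC replicates 3 and 4 lay well above them. The means were 0.494 ± 0.341 and 2.98 ± 2.10 FPKM, respectively (mean ± SD, n = 4 each), an SMC to pericyte ratio of 6.02. The log2 fold change was -1.28 (standard error 0.41, 95% interval -2.24 to -0.32) and did not pass the test (limma adjusted p = 0.0672). At such low levels the added 1 sets the fold change, and a pseudocount of 0.1 gave -2.39 (limma adjusted p = 0.0533). It passed when only genes with at least 1 FPKM in at least 4 libraries were tested (limma adjusted p = 0.0225), a filter that Loxl4 meets only through its SMC libraries. With this filter, 5987 of 13349 genes tested were called. It also passed without SMC replicate 1 (limma adjusted p = 0.0415).

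Without pericyte replicate 2, the library with the high FPKM sum, the log2 fold changes were -2.68 for Lox, -2.53 for Loxl1, -2.41 for Loxl2, -2.16 for Loxl3 and -1.11 for Loxl4. Lox, Loxl1, Loxl2 and Loxl3 passed the test without it (limma adjusted p from 4.2e-04 to 0.00526), and Loxl4 did not (limma adjusted p = 0.132).

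The make-up of the family was compared next. The 5 members summed to 19.02 to 20.12 FPKM in pericytes and to 97.5 to 185 FPKM in SMCs. The narrow range in pericytes depends on the scaling. As TPM the sums were 16.6 to 29.2 in pericytes, lowest in replicate 2, and 132 to 264 in SMCs. Lox and Loxl1 together held 73.0% to 87.1% of this sum in pericytes and 74.2% to 82.2% in SMCs, so the ranges overlapped. Within the pericyte libraries the balance between them moved widely. Lox held 20.2% and Loxl1 66.9% in pericyte replicate 2, whereas Lox held 57.3% and Loxl1 15.7% in pericyte replicate 3. In SMCs, Lox held 37.2% to 61.8% and Loxl1 20.4% to 42.0%. Loxl2 held 5.13% to 10.2% in pericytes and 6.19% to 11.9% in SMCs, Loxl3 held 6.73% to 17.9% and 8.86% to 14.5%, and Loxl4 held 0.134% to 4.14% and 1.12% to 2.79%. For every member the ranges of the shares overlapped between the groups.

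**Figure D2:**
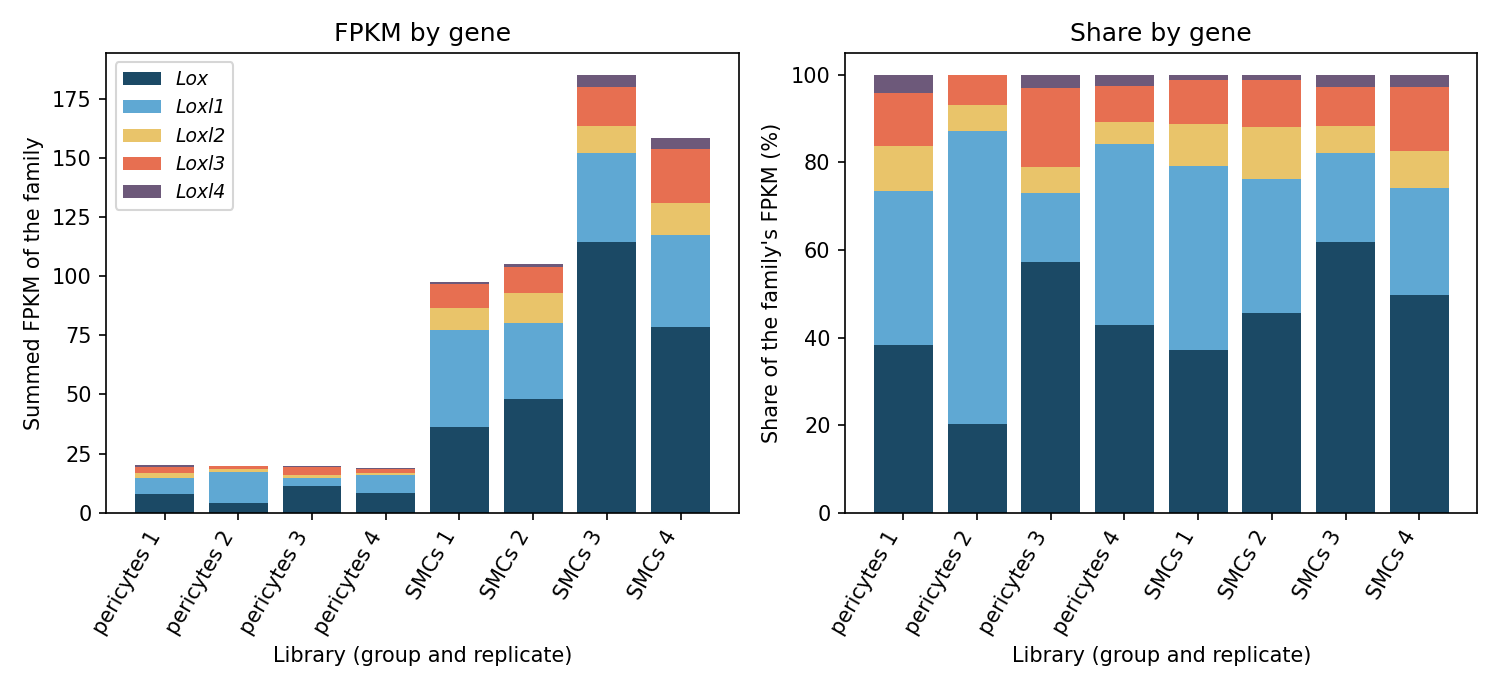
FPKM of the lysyl oxidase genes stacked in each library (left) and the same values as a percentage of the family's sum (right). The sum is between 19.02 and 20.12 FPKM in the pericyte libraries and at least 97.5 FPKM in the SMC libraries, while the share of each gene overlaps between the groups.

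The order of the members was similar in both groups. Lox was above Loxl1 in 3 of 4 pericyte libraries and 3 of 4 SMC libraries, and their ranges overlapped in each group, so their order is not beyond the spread. In SMCs both were above Loxl2 and Loxl3 in 4 of 4 libraries with no overlap. In pericytes the ranges of Loxl1 and Loxl3 overlapped, because replicate 3 had 3.12 FPKM of Loxl1 and 3.57 FPKM of Loxl3. Loxl3 was above Loxl2 in 4 of 4 pericyte libraries and 3 of 4 SMC libraries, with overlapping ranges in each group. Loxl4 was below every other member in all 8 libraries, and its range overlapped none of theirs.

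The genes with the most similar pattern were found by the Pearson correlation of log2(FPKM + 1) over the 8 libraries, among the 13607 genes whose mean reached 1 FPKM. The coefficients are descriptions only, because the libraries form 2 groups and any gene that differs between them scores highly. Lox was closest to Decr2 (r = 0.995), Aebp1 (r = 0.992) and Gulp1 (r = 0.992). Aebp1 encodes a collagen-binding matrix protein and was higher in SMCs, at 14.1 ± 5.79 and 117 ± 66.7 FPKM in the pericyte and SMC libraries (mean ± SD, n = 4 each, limma adjusted p = 0.00502). Loxl1 was closest to Rps4y2 (r = 0.997), Crip2 (r = 0.996) and Ifitm2 (r = 0.994). Loxl2 was closest to Rnf144b (r = 0.996), Fmo1 (r = 0.994) and Efemp1 (r = 0.993), which encodes the matrix protein fibulin-3. Efemp1 had 7.61 ± 2.26 and 73.2 ± 9.31 FPKM in the pericyte and SMC libraries (mean ± SD, n = 4 each, limma adjusted p = 5.9e-05). Loxl3 was closest to Gm13152 (r = 0.992), Tmem119 (r = 0.991) and Ank2 (r = 0.989), and Loxl4 to Efna5 (ENSMUSG00000090425, r = 0.998), Prkcc (r = 0.994) and B3gnt3 (r = 0.987). The symbol Efna5 also stands for a second identifier, ENSMUSG00000048915, whose means were 0.183 FPKM in pericytes and 0.121 FPKM in SMCs. No gene was named for more than 1 member.

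Genes that act with the lysyl oxidases were then counted in 8 lists of substrates, partners, modifying enzymes, copper handling and upstream regulators. Of their 69 genes, 39 were called higher in SMCs, 0 higher in pericytes, and 24 were SMC-enriched, beside 11.2%, 10.6% and 2.66% of all genes tested. The 1 gene with an unadjusted p below 0.05 toward pericytes was Tgfb1, which passed with the replicate block and without pericyte replicate 1. For 44 of the 69 genes, all SMC libraries exceeded all pericyte libraries, against 12.5% of all genes tested. The 8 lists had medians from -2.49 to -0.19 on the log2 fold change scale.

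**Figure D3:**
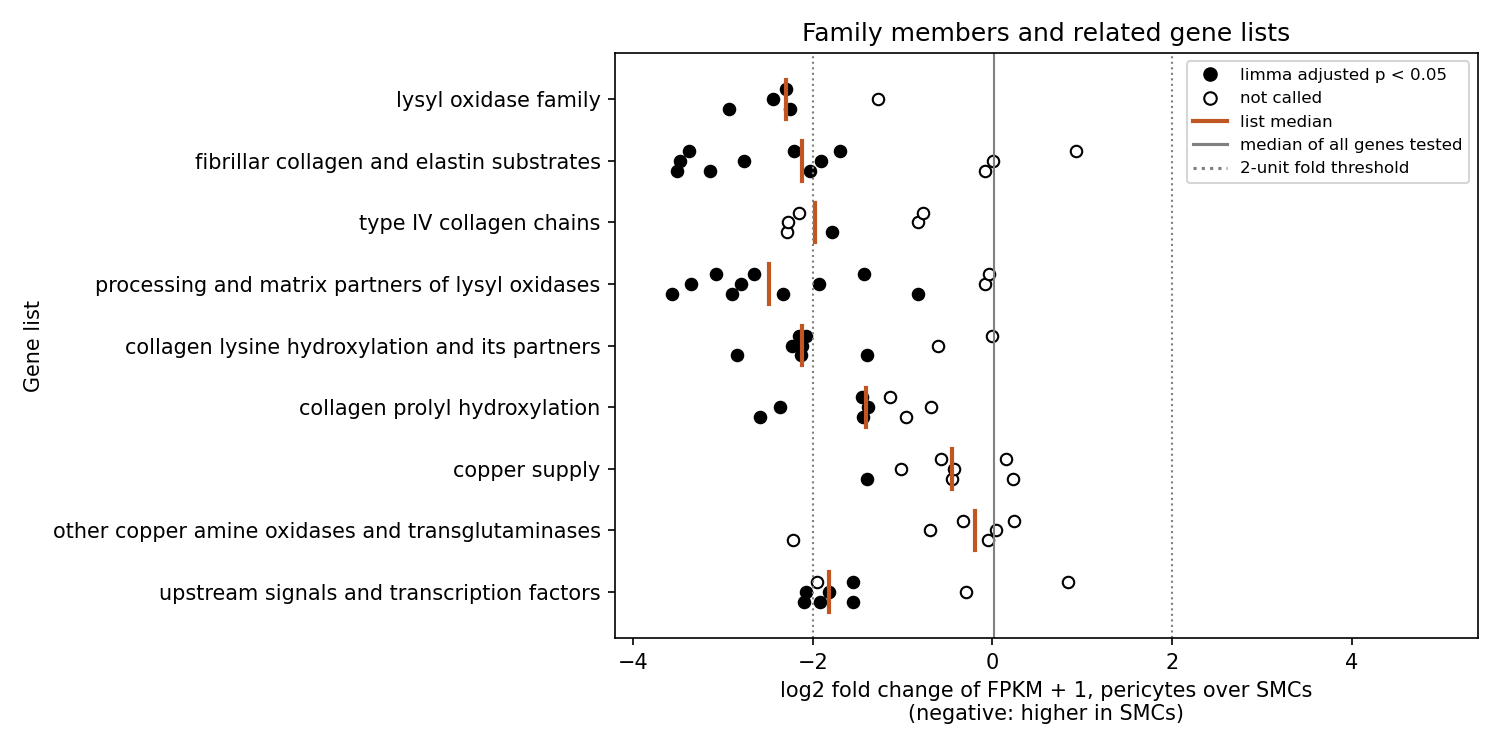
Log2 fold change of FPKM + 1, pericytes over SMCs, for each member of the lysyl oxidase family and of 8 related gene lists, with filled points for genes called by limma and open points for the others. The family median of -2.30 lies among the medians of the collagen, partner and lysine hydroxylation lists (-2.49 to -1.97), away from those of copper supply (-0.46) and the other copper amine oxidases and transglutaminases (-0.19).

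The fibrillar substrates were higher in SMCs for most chains. Of 12 fibrillar collagen and elastin genes, 9 were called higher in SMCs and 7 were SMC-enriched (median log2 fold change -2.12). The smallest adjusted p-values were those of Col5a2, Col3a1 and Col5a1, with limma adjusted p = 8.4e-05, 6.2e-04 and 0.00108. Col3a1, the type III collagen chain, had 96.4 ± 28.7 and 1159 ± 523 FPKM in the pericyte and SMC libraries (mean ± SD, n = 4 each). Col2a1, Col24a1 and Col27a1 did not pass. Of 6 type IV collagen chains, only Col4a3 was called (log2 fold change -1.79, limma adjusted p = 0.0201), and without pericyte replicate 3 no chain was called. Without pericyte replicate 4 the count was 2, and without SMC replicate 1 or 2 it was 3. With the replicate block it was 4, and other settings called up to 5. Col4a1 and Col4a2, the chains of most basement membranes, had log2 fold changes of -2.27 and -2.29 with overlapping groups (limma adjusted p = 0.0807 and 0.0575). Both were lower in pericytes within every replicate number.

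Processing enzymes and matrix partners followed the same direction. Of 12 genes, 10 were called higher in SMCs and 7 were SMC-enriched, with a median log2 fold change of -2.49. Fbln5 encodes fibulin-5, which binds Loxl1 on elastic fibers, and had 10.52 ± 3.36 and 76.8 ± 10.02 FPKM in the pericyte and SMC libraries (mean ± SD, n = 4 each, limma adjusted p = 2.2e-04). Efemp2 encodes fibulin-4, which binds Lox, and had 15.2 ± 5.25 and 77.7 ± 10.7 FPKM, respectively (mean ± SD, n = 4 each, limma adjusted p = 5.9e-04). Adamts2, a procollagen propeptidase, had 1.02 ± 0.376 and 6.80 ± 1.90 FPKM, respectively (mean ± SD, n = 4 each, limma adjusted p = 7.5e-04). Tll2 and Adamts14 did not pass.

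The enzymes that prepare collagen inside the cell also had more calls toward SMCs. Of 9 genes of lysine hydroxylation and its partners, 7 were called higher in SMCs and 6 were SMC-enriched (median log2 fold change -2.12). Serpinh1, the collagen chaperone HSP47, had a log2 fold change of -2.85 (limma adjusted p = 2.4e-04). Fkbp10, a partner of the telopeptide lysyl hydroxylase, had -2.08 (limma adjusted p = 0.00123), and Glt25d2, a collagen galactosyltransferase, had -2.16 (limma adjusted p = 4.5e-04). Glt25d1 and Ppib did not pass. Of 8 genes of prolyl hydroxylation, 5 were called higher in SMCs, among them P4ha2 (log2 fold change -2.37, limma adjusted p = 0.00103), P4ha1 (-1.38, limma adjusted p = 0.0175) and Crtap (-2.59, limma adjusted p = 0.0193). Without pericyte replicate 4, or without SMC replicate 1, 2 or 3, this count was 3, and with the filter at 1 FPKM it was 8. With that filter, 3040 of 13349 genes tested were called higher in SMCs. Crtap did not pass with the replicate block (limma adjusted p = 0.0761), and P4ha1 did not without pericyte replicate 3 (limma adjusted p = 0.0501).

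The count of copper handling genes depended on the scaling. Of 7 genes, 1 was called, near the 11.2% of all genes tested that were called higher in SMCs. It was Slc31a2, a copper transporter, at 11.8 ± 1.68 and 32.7 ± 3.51 FPKM in the pericyte and SMC libraries (mean ± SD, n = 4 each, log2 fold change -1.40, limma adjusted p = 2.6e-04). Atp7a, the copper pump that loads secreted enzymes, had 6.38 ± 2.63 and 13.03 ± 1.95 FPKM, respectively (mean ± SD, n = 4 each) and did not pass (log2 fold change -1.01, limma adjusted p = 0.0612). As TPM, 4 of these genes were called, and with quantile scaling 5. Without pericyte replicate 2 it was 4, and without SMC replicate 4 it was 2. Of 6 other copper amine oxidases and transglutaminases, 0 were called higher in either group by limma, and 1, Tgm2, had an unadjusted p below 0.05. Tgm2, the tissue transglutaminase, had 20.4 ± 16.8 and 106 ± 88.2 FPKM in the pericyte and SMC libraries (mean ± SD, n = 4 each) with overlapping groups (limma adjusted p = 0.141, or 0.0139 with the replicate block). Aoc3, a membrane amine oxidase of vascular cells, had 2.45 ± 1.02 and 5.17 ± 3.67 FPKM, respectively (mean ± SD, n = 4 each, limma adjusted p = 0.350).

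Among 9 upstream signals and transcription factors, 6 were called higher in SMCs. Tgfb2, a TGF-β ligand, had a log2 fold change of -1.55 (limma adjusted p = 3.2e-04). The mesenchymal transcription factor genes Snai2 and Twist1 had log2 fold changes of -2.10 and -1.55 (limma adjusted p = 0.00341 and 0.00484). Tgfb1, Hif1a and Epas1 did not pass.

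Whether Lox, Loxl1 and Loxl2 changed in proportion to a substrate was examined with ratios chosen after the values were seen. Lox had 1.76 to 3.45 FPKM per 100 FPKM of Col1a1, Col1a2 and Col3a1 in pericytes and 1.72 to 2.56 in SMCs. The log2 ratio, pericytes minus SMCs, differed by 0.27 (exact permutation test, two-sided p = 0.371, or 0.4 after adjustment over the 3 ratios). Loxl1 had 73.0 to 1171 FPKM per 100 FPKM of Eln (elastin) in pericytes and 32.1 to 197 in SMCs, a log2 difference of 1.36 (exact permutation p = 0.257, adjusted p = 0.4). Pericyte replicate 2, at 1171, carried much of it, and without that library the difference was 0.51. Loxl2 had 0.979 to 6.32 FPKM per 100 FPKM of Col4a1 and Col4a2 in pericytes and 2.61 to 11.8 in SMCs, a log2 difference of -0.82 (exact permutation p = 0.4, adjusted p = 0.4). Within each replicate number this last ratio was lower in pericytes (4 of 4 numbers), which the permutation over unpaired libraries does not use. Same-numbered libraries are not stated to share animals, so this is a description only. Leaving out pericyte replicate 2 gave log2 differences of 0.33 for the Lox ratio and -1.15 for the Loxl2 ratio. The permutation tests did not detect a difference. An exact permutation test cannot go below p = 0.0286 with 4 libraries in each group, and a p that misses the threshold does not show equal ratios.

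Markers of the cells that the gates could hold were measured beside the family. Of 8 smooth muscle markers, 0 were called by limma (4 at an unadjusted p below 0.05, all higher in SMCs), and they summed to 893 to 2817 FPKM in pericytes and 2770 to 8233 FPKM in SMCs. Of 8 pericyte markers, 1 was called, Rgs5, higher in SMCs (5 at an unadjusted p below 0.05, all higher in SMCs), with sums of 37.8 to 101 FPKM in pericytes and 79.2 to 339 FPKM in SMCs. Of 10 fibroblast and fibro-adipogenic markers, 8 were called higher in SMCs, and they summed to 1136 to 2035 FPKM in pericytes and 5045 to 6395 FPKM in SMCs. Dcn, a defining fibroblast gene, went the other way as listed, at 0 in every SMC library, against 509 to 1165 FPKM in pericytes. Lum, of the same list, had 1131 to 1971 FPKM in those SMC libraries. Whether the 0 stands for absent Dcn RNA or for a missing value was not tested. Dcn therefore adds to the fibroblast sums of pericytes only. Dpp4, of the same list, also had a higher mean in pericytes, with a log2 fold change of 1.11 that did not pass (limma adjusted p = 0.0622). Of 5 tendon markers, 4 were called higher in SMCs (sums of 91.5 to 315 FPKM in pericytes and 1235 to 2239 FPKM in SMCs). Of 8 endothelial markers, 6 were called higher in SMCs (sums of 95.1 to 155 FPKM in pericytes and 362 to 1138 FPKM in SMCs). Of 8 leukocyte markers, 7 were called higher in pericytes (sums of 4628 to 7872 FPKM in pericytes and 287 to 381 FPKM in SMCs). The fibroblast, tendon and endothelial sums thus moved with the lysyl oxidase family between the groups. The fibroblast list includes Col1a1 and Col1a2, so its sum is not independent of the fibrillar substrates. The smooth muscle and pericyte sums also had higher values in SMCs, within every replicate number, although their ranges overlapped between the groups. The part of any of these cells in the family's difference was not tested.

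**Figure D4:**
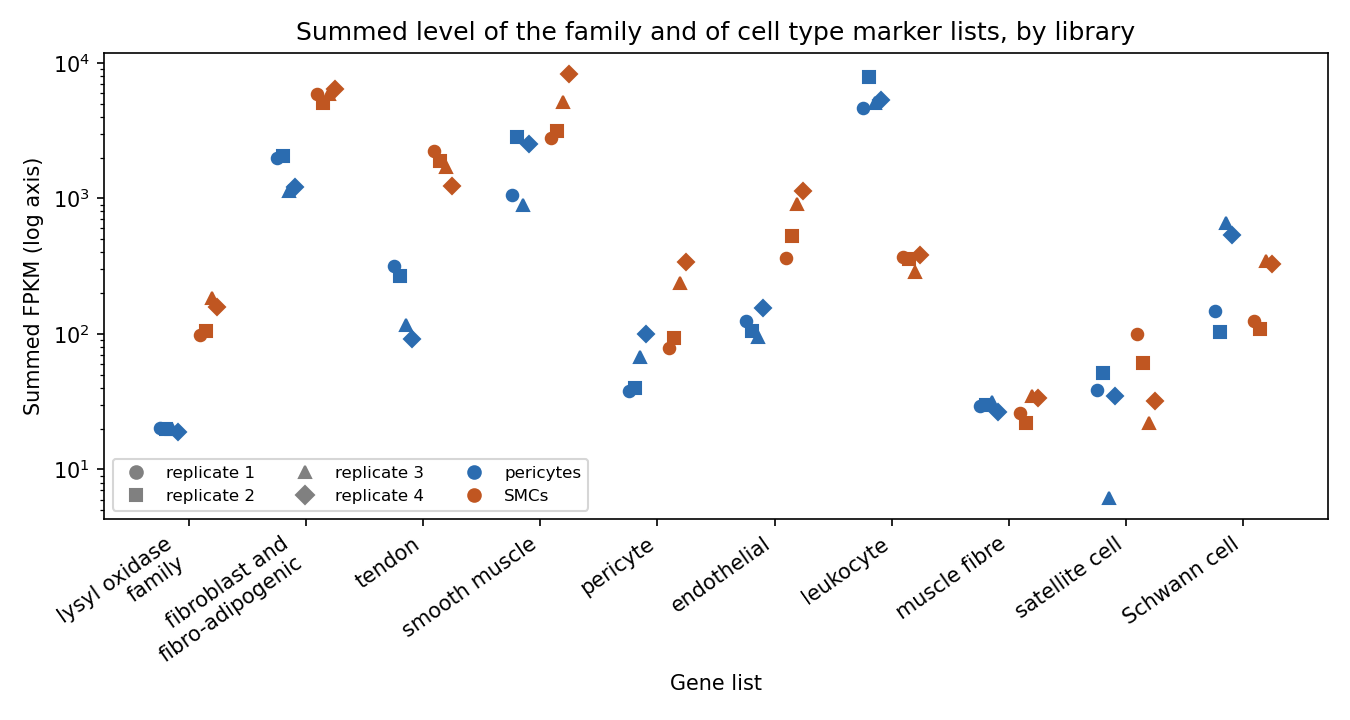
Summed FPKM, on a log axis, of the lysyl oxidase family and of 9 lists of cell type markers in each pericyte (blue) and SMC (orange) library, with symbols for replicates. The family, fibroblast, tendon and endothelial sums are higher in every SMC library, and the leukocyte sum is higher in every pericyte library.

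Among SMC libraries, replicates 3 and 4 had more Lox, Loxl3 and Loxl4 than replicates 1 and 2. The smooth muscle sum followed the same split, at 2770 and 3131 FPKM in replicates 1 and 2 and 5175 and 8233 FPKM in replicates 3 and 4. The pericyte, endothelial, Schwann cell and muscle fiber sums were also higher in SMC replicates 3 and 4, the tendon and satellite cell sums were lower, and the part of these cells was not tested. Loxl1 and Loxl2 did not follow this split. When the split of replicates 1 and 2 from 3 and 4 was a covariate, all 5 members passed the test, and Loxl4 had a limma adjusted p of 0.022. The labels do not give this split. It is seen in these same values, those of Loxl4 in SMCs among them, so the passes add no independent support. With this covariate, 7723 of 27414 genes tested were called, against 5977 without it. Of 6 muscle fiber markers, 1 was called, Mylpf, higher in pericytes (log2 fold change 1.01, limma adjusted p = 0.0108). Muscle fiber marker sums ranged from 26.3 to 31.6 FPKM in pericytes and 21.9 to 34.96 FPKM in SMCs, and satellite cell and Schwann cell sums overlapped between the groups.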

How the data were processed

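RNA from sorted pericytes and SMCs (4 libraries each) was amplified with a SMART-Seq kit and built into Nextera XT libraries. The authors checked reads with FastQC, used TopHat with Bowtie2 to align them to NCBI Build 37 of the mouse genome with an Ensembl annotation, and deposited FPKM per gene and library with no log or filter. The program that computed FPKM and the strand setting are not given in the sources used here, and no pair of libraries held identical values.

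The log2 of FPKM + 1 entered limma 3.58.1 (lmFit and eBayes, R 4.3.3), with Benjamini-Hochberg adjustment over 27414 genes above 0 FPKM in at least 1 library. Sums, ratios and exact permutation tests were computed in Python 3.11.15 (pandas 2.3.3, numpy 2.4.6), and plots were drawn with matplotlib 3.10.9.

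The members and lists were chosen with earlier results of these data known. Genes were named by a rule: all members, the 3 genes with the smallest adjusted p in the leading direction of each list and 1 in the other (or the 2 most abundant without a call), the 3 most similar genes per member, overlapping neighbours and the genes of the sort with Acta2. Aup1, Atp7a, Col4a1, Col4a2, Tgfb1, Rgs5, Dcn, Dpp4 and Mylpf were named after their values were seen. So were the genes listed as not passing and those in the substrate ratios. Alternatives were another pseudocount, filter, scaling, block, covariate, trend, and each library left out. Neither the brain samples nor protein data were analysed here.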

Additional observations from a re-analysis of the deposited data

Results flagged for a closer look

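A library stood apart from the other 3 of its group, by Dixon's test at the 95% critical value, for 4 of the values described here. In all, 179 groups of 4 libraries were tested, over 71 named genes and the shares, sums and ratios, and chance alone marks about 1 in 20 groups. Pericyte replicate 2, the library with the highest FPKM sum, was the one apart in 3 cases. It had 1171 FPKM of Loxl1 per 100 FPKM of Eln, the highest of the pericyte libraries, where the next was 133. It had 2.48 FPKM of Atp7a, the lowest of the pericyte libraries, where the others had 7.23 to 8.20 FPKM. It had 398.9 FPKM of Ppib, a collagen-folding isomerase, the highest of the pericyte libraries. SMC replicate 2 had 15.9 FPKM of Atp7a, the highest of the SMC libraries. No FPKM value or share of a lysyl oxidase gene itself stood apart in this way.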

How the results depend on the processing

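Lox, Loxl1, Loxl2 and Loxl3 kept their direction and passed the limma test in all 64 of their fits under an alternative, 16 for each gene. Leaving out each library in turn gave log2 fold changes, pericytes over SMCs, of -3.19 to -2.65 for Lox, -2.53 to -1.93 for Loxl1, -2.57 to -2.36 for Loxl2 and -2.48 to -2.08 for Loxl3, so that Loxl1 fell under the fold threshold of 2 without pericyte replicate 3. Loxl4 kept its direction, at -1.53 to -1.01 with a library left out (limma adjusted p from 0.0415 to 0.153). It passed with the filter at 1 FPKM and with the covariate for replicates 1 and 2 against 3 and 4, with a log2 fold change of -1.28 in each, and without SMC replicate 1. Loxl4 meets that filter only through its SMC libraries, and its SMC values follow the split used as covariate. Over all genes, 5987 of 13349 were called with the filter and 7723 of 27414 with the covariate, against 5977 of 27414 with neither.

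Replicate numbers 1 to 4 occur in both groups. For libraries with the same number, deviations from the group means correlated across genes at 0.0794 to 0.474, and 5 of 8 libraries correlated best with their own number, so the numbers were not taken as pairs. With the replicate block, the limma adjusted p was 0.00412 for Lox, 0.0181 for Loxl1, 0.00434 for Loxl2, 0.0114 for Loxl3 and 0.0698 for Loxl4, and the called genes changed from 5977 to 6153. The block gave 4 called type IV collagen chains, 2 copper genes, 1 other amine oxidase or transglutaminase gene (Tgm2) and 1 pericyte-higher gene in the 8 lists.

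Of the type IV collagen chains, 4 were called with a pseudocount of 0.1 and with the filter, 3 with quantile scaling and with the intensity trend, 2 as TPM and 5 with the covariate, and leaving out libraries gave 0 to 3. Of the prolyl hydroxylation genes, 8 were called with the filter, and leaving out libraries gave 3 to 6. Of the copper genes, 2 were called with the filter and with the covariate, 5 with quantile scaling, 4 as TPM and 3 with median-ratio scaling, and leaving out libraries gave 1 to 4. Of the other amine oxidase and transglutaminase genes, 1 (Tgm2) was called with the filter and with the covariate. The covariate gave 1 pericyte-higher gene in the 8 lists, and leaving out libraries gave 0 to 1. The cause of these changes was not tested. Of the 19 genes named from the lists, 15 kept their side of the threshold throughout. As TPM, 63.8% of all calls were higher in SMCs, against 51.2% as deposited.

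Read counts are unknown, so counting error could not be given for values such as 0.0265 FPKM of Loxl4.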
